A study of Homo sapiens with 156 samples.

Results

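The untreated baseline of the acute myeloid leukaemia (AML) cell line MV411 was described here from its 8 vehicle libraries, all of the samples of that line that received DMSO at 0 nM. They are 8 of the 156 libraries of a study of DNMT1 inhibitors, DNMT1 being the methyltransferase that copies DNA methylation onto new strands. The libraries were taken on days 1, 2, 4 and 6 of culture, with 2 libraries a day, and were set against the 8 DMSO libraries of THP1 and the 8 of NOMO1, which were taken on the same days. All 24 libraries were made from RNA of cells plated a day ahead of the vehicle, and the labels give no other agent and no engineered allele. Each group is 1 established cell line, so a difference between groups is a difference between cultures of 3 lines and cannot be told apart from what is particular to a single donor's leukaemia. The labels do not state whether the 2 libraries of a day were separate cultures, and the p-values measure the spread between these libraries only, which may be technical.

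All 3 lines derive from acute leukaemias with monocytic features in which the KMT2A gene is fused to a partner, AFF1 in MV411 and MLLT3 in THP1 and NOMO1. KMT2A fusion proteins are known to sustain transcription of the HOXA cluster and of MEIS1, which encode homeodomain proteins of early blood progenitors. MV411 also carries an internal tandem duplication in FLT3, a receptor tyrosine kinase whose mutant form signals without its ligand and switches on the transcription factor STAT5. STAT5 in turn is known to induce PIM1, CISH, SOCS1, OSM and IL2RA, and it does so at sites of the form TTCNNNGAA. None of this background was measured here.

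The promoter of CISH, a STAT5-induced inhibitor of cytokine signalling, is shown because it was the only window among those read for the listed STAT5 target genes with this motif. The 300 bases run from 250 before to 50 after the transcription start, at chr3:50611725-50612024 on the minus strand (RefSeq, GRCh38), and capitals mark each TTCNNNGAA.
CISH: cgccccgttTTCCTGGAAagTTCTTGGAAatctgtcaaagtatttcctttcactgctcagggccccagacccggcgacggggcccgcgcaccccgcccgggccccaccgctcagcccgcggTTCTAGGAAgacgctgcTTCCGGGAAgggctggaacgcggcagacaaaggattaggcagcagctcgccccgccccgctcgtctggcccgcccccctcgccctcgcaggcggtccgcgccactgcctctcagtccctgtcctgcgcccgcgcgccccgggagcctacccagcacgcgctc
The motif is its own reverse complement, so a single search covers both strands. It occurred 4 times in this window. Of 27305 promoter windows of the same length, 6 (0.0220%, CISH among them) held at least 4 copies and 7.88% held at least 1. A match describes these letters and is not a measured binding site. Of the 19 listed STAT5 target genes, 14 had a promoter in the table, and those other than CISH held no copy in these bases.

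Levels were the authors' deposited FPKM values (fragments per kilobase of transcript, scaled to library size), compared as log2(FPKM + 0.5). A gene was tested where at least 2 of the 24 libraries reached 1 FPKM, which left 20420 genes. It was called where limma's adjusted p was below 0.05 and the log2 difference was at least 1 in size, and called against both lines where this held with the same sign against THP1 and against NOMO1. The deposited values do not sum to the same total in each library, so scale was checked by rescaling the libraries to equal sums and to equal median ratios. The median log2 difference over all tested genes was -0.04 against THP1 and 0.18 against NOMO1 as deposited, -0.11 and 0.03 after median ratios, and -0.15 and -0.02 after equal sums. Fragment counts were not used here, so the depth is unknown and no counting interval is given. Correlations of log2 levels were 0.940 to 0.974 among MV411 libraries, 0.847 to 0.892 between MV411 and THP1 and 0.844 to 0.892 between MV411 and NOMO1. The first 2 principal components separated the lines and held 37.9% and 31.1% of the variance. On the third, with 5.71%, the day 4 libraries of MV411 and of THP1 stood apart from the others; without day 4, 704 genes were higher and 926 lower in MV411 than in both lines.

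The 4 general leukocyte and myeloid markers (PTPRC, CD33, SPI1 and CEBPA) were all above 1 FPKM in MV411 and summed to 332 to 464 FPKM, against 454 to 576 in THP1 and 263 to 296 in NOMO1. Of the 9 monocyte markers, 5 reached 1 FPKM in some MV411 library, and CD14, FCN1 and VCAN were among those under 1 FPKM in all 8. All 9 reached it in NOMO1 and 7 in THP1. Their summed level had a median of 1047 FPKM in MV411, 410.6 FPKM in THP1 and 17350 FPKM in NOMO1. By this median MV411 lay between the lines, but its libraries, at 393 to 1782 FPKM, overlapped with THP1 at 328 to 565 FPKM. Most of the MV411 sum was LYZ (values below), while S100A8, S100A9, CD14 and ITGAM were lowest in MV411. The 6 neutrophil precursor markers had median sums of 1795 FPKM in MV411, 7636 FPKM in THP1 and 6471 FPKM in NOMO1. Markers of fibroblasts and epithelium summed to at most 0.196 FPKM in MV411, and the 6 B-cell, 6 T-cell and 5 erythroid markers to at most 3.83, 4.71 and 1.11 FPKM. Their part in the differences below was not tested.

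Compared with both THP1 and NOMO1, MV411 had 673 genes higher and 932 lower, which are 3.3% and 4.56% of the genes tested. Higher genes gave 41.9% of these calls as deposited, 33.4% after median ratios (535 higher, 1066 lower) and 29.7% after equal sums (481 higher, 1141 lower), so the balance of the directions depends on the scale. Calls that held on all 3 scales numbered 481 higher and 930 lower. Against THP1 alone, 1641 genes were higher (8.04%) and 2792 lower (13.7%), and against NOMO1 alone 2113 were higher (10.3%) and 2183 lower (10.7%). Against the mean of the other lines, 1375 were higher (6.73%) and 2182 lower (10.7%). Protein-coding genes made up 59.1% of the genes called higher and 80.6% of those called lower, beside 63.3% of all genes tested.

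Most of the called genes were separated without overlap. All 8 MV411 libraries lay above all 16 others for 562 of the 673 higher genes, and below all 16 for 858 of the 932 lower genes. Over all genes tested, the same was true of 8.05% above and 7.98% below. Of the lower genes, 470 (50.4%) stayed under 1 FPKM in every MV411 library, and of the higher genes, 175 (26.0%) stayed under 1 FPKM in all 16 others. Such genes entered the test only through the lines where they were high, so their number is partly set by the filter.

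**Figure D1:**
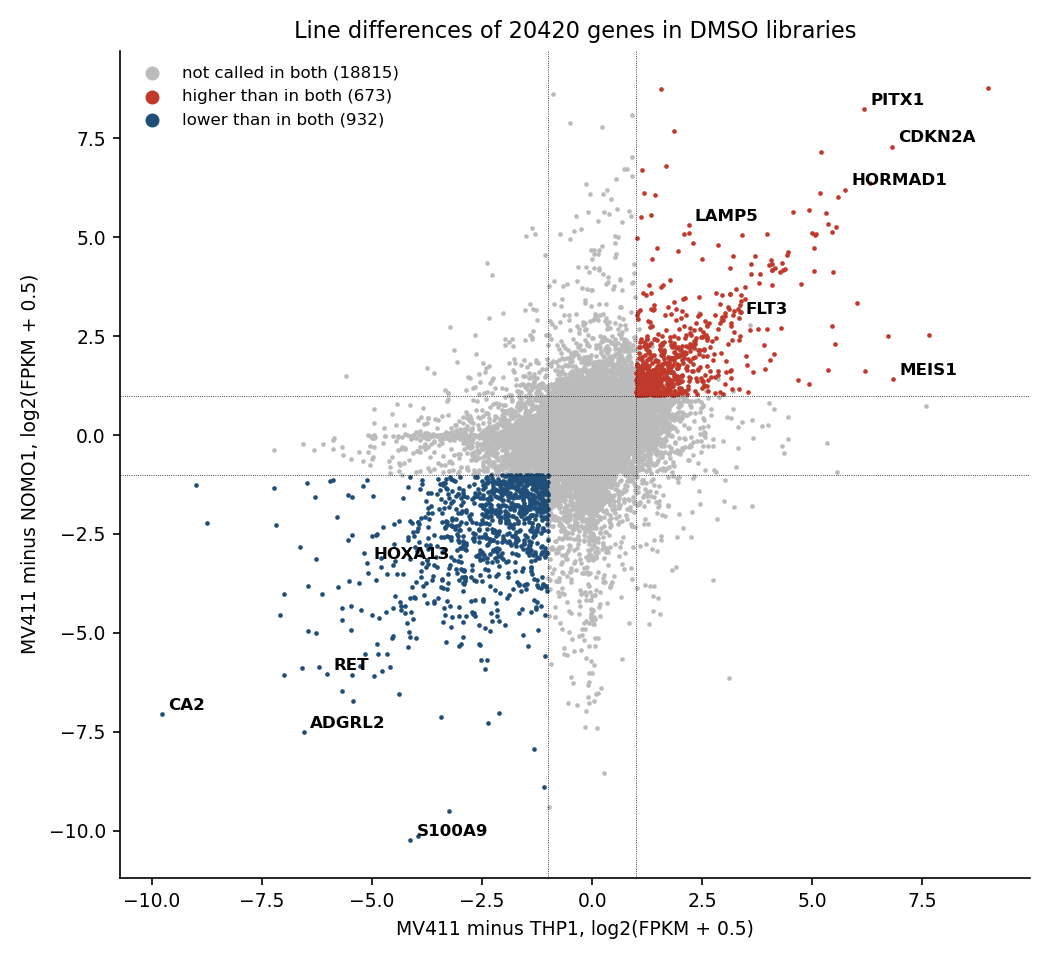
Difference of each of the 20420 genes tested between MV411 and THP1 (horizontal) and between MV411 and NOMO1 (vertical), both in log2(FPKM + 0.5) over 8 libraries a line. Red points are the 673 genes higher in MV411 than in both lines, blue points the 932 lower, grey points the rest, and dotted lines mark a log2 difference of 1; CDKN2A and PITX1 lie far out among the higher genes and CA2 and ADGRL2 among the lower.

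FLT3 and a group of STAT5 target genes stood higher in MV411 than in both other lines. Of the STAT5 target list, 7 of the 19 genes tested were called higher in MV411 (36.8% beside 3.3% of all genes) and 0 lower (beside 4.56%). Those 7 were PIM1, CISH, SOCS1, OSM, CCND2, MYC and IL2RA, of which all but SOCS1 and MYC held on all 3 scales. The list's median log2 difference was 1.12 against THP1 and 0.70 against NOMO1, beside -0.04 and 0.18 over all genes. This list, like those below, was chosen with earlier results of these data known, so such shares only describe the listed genes.

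FLT3 was at 146, 163 and 194 FPKM (lowest, median and highest library) in MV411, against 12.2, 15.9 and 18.6 FPKM in THP1 and 18.4, 19.5 and 24.5 FPKM in NOMO1. The lowest MV411 library stood far above the highest library of either other line. The log2 difference was 3.34 ± 0.04 (SE) against THP1 and 2.96 ± 0.04 against NOMO1 (limma adjusted p = 2.5e-17 and 8e-17). With 1 value a gene, transcripts with and without the duplication are not separated.

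PIM1, a serine/threonine kinase that promotes survival, was at 65.1, 80.1 and 123 FPKM in MV411, against 3.92, 5.38 and 6.74 in THP1 and 14.5, 17.4 and 22.5 in NOMO1. CISH was at 21.8, 24.4 and 27.7 FPKM in MV411, against 3.86, 4.39 and 5.44 in THP1 and 4.25, 5.22 and 5.32 in NOMO1. For both genes every MV411 library was above every other library. Their log2 differences were 3.91 ± 0.07 and 2.31 ± 0.07 (SE) against THP1, and 2.27 ± 0.07 and 2.20 ± 0.07 against NOMO1. CISH is the gene with 4 TTCNNNGAA copies in the window printed above, while PIM1 and IL2RA had none in theirs. A link between these copies and the levels was not tested.

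IL2RA, the alpha chain of the interleukin-2 receptor, was at 10.5, 19.2 and 24.8 FPKM in MV411, while no THP1 library exceeded 0.107 FPKM and no NOMO1 library 0.0471 FPKM. The cyclin gene CCND2 was at 8.36, 10.7 and 15.1 FPKM in MV411, against at most 0.483 FPKM in THP1 and 0.304 FPKM in NOMO1. Both genes were near 0 outside MV411. Oncostatin M, OSM, was at 6.50, 8.94 and 11.7 FPKM in MV411, against 0.485, 0.875 and 1.15 in THP1 and 0.894, 1.19 and 1.70 in NOMO1. Its log2 difference was 2.80 ± 0.13 (SE) against THP1 and 2.45 ± 0.13 against NOMO1.

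Not every listed target followed. SOCS2 averaged 27.5 FPKM in MV411, with 2.41 FPKM in THP1 and 48.1 FPKM in NOMO1, so its order depended on the line compared. PIM3 averaged 34.0 FPKM in MV411, against 32.5 in THP1 and 32.3 in NOMO1. BCL2L1 averaged 10.7 FPKM in MV411, against 9.96 in THP1 and 6.83 in NOMO1. STAT5A and STAT5B themselves passed the test against both lines in neither direction.

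Among 32 tested receptors of the FLT3, KIT and cytokine group, 4 were higher in MV411 (FLT3, IL3RA, IL2RA and IL1RAP) and 3 lower (KIT, CSF3R and IL10RB). The lower share was 9.38% beside 4.56% of all genes, and the higher share was also above the 3.3% of all genes. IL3RA, the interleukin-3 receptor alpha chain, was at 19.7, 24.8 and 40.4 FPKM in MV411, against 7.33, 9.43 and 10.4 in THP1 and 6.57, 8.79 and 10.6 in NOMO1. KIT, the receptor for stem cell factor, was at 0.879, 1.05 and 1.35 FPKM in MV411, against 2.88, 5.60 and 6.56 in THP1 and 18.4, 22.6 and 27.3 in NOMO1. The MV411 range of IL3RA lay above, and that of KIT below, both other ranges. KITLG, the KIT ligand, was lower too, with a median of 0.129 FPKM in MV411, against 9.73 in THP1 and 4.51 in NOMO1. The IL1RAP call did not hold on the rescaled libraries.

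**Figure D2:**
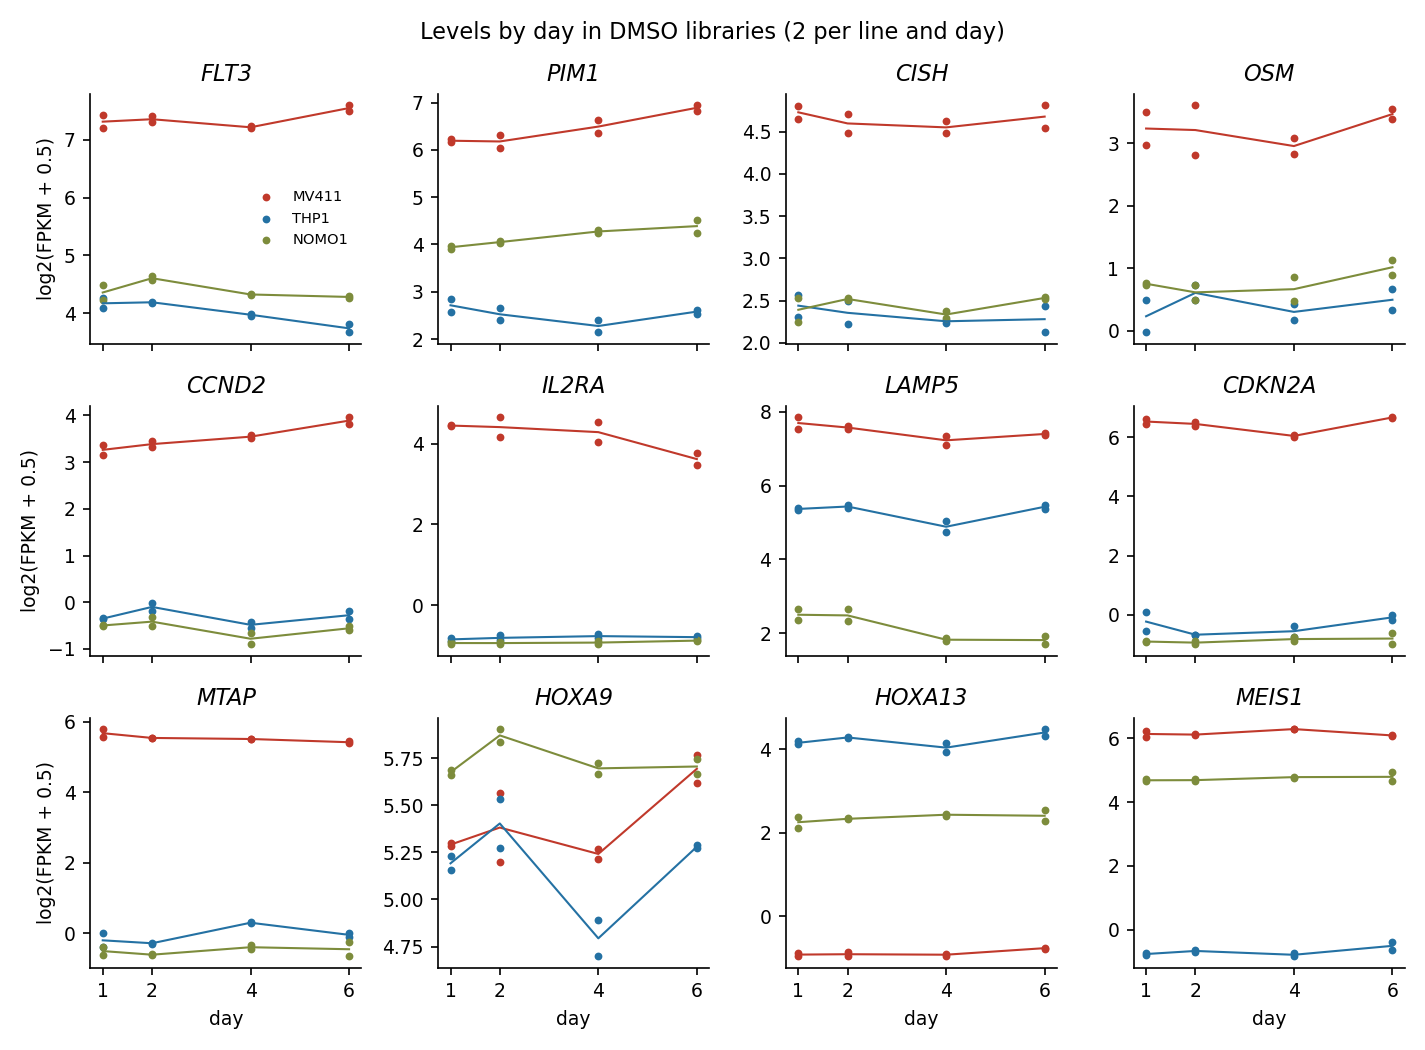
Levels of 12 genes in log2(FPKM + 0.5) by day, with 1 point a library (2 per line and day) and lines through the day means, MV411 in red, THP1 in blue and NOMO1 in green. The red points of FLT3, PIM1, CISH, OSM, CCND2, IL2RA, LAMP5, CDKN2A, MTAP and MEIS1 lie above the others on every day, those of HOXA13 below, and those of HOXA9 among them.

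In the HOXA cluster MV411 had HOXA9 and HOXA10 at levels like those of the other lines, with the genes on either side lower. HOXA5, HOXA6, HOXA7, HOXA11 and HOXA13 were lower in MV411 than in both lines. They were 5 of the 12 HOX genes tested (41.7% beside 4.56% of all genes), and 0 were higher (beside 3.3%). All 5 held on all 3 scales. The other 18 of the 30 listed HOX genes did not reach 1 FPKM in 2 libraries.

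HOXA9 was at 36.2, 38.7 and 54.0 FPKM in MV411, against 25.4, 37.6 and 45.9 in THP1 and 50.2, 51.8 and 59.5 in NOMO1. HOXA10 was at 27.6, 32.0 and 36.5 FPKM in MV411, against 22.1, 33.8 and 38.4 in THP1 and 28.9, 32.0 and 34.8 in NOMO1. The MV411 range overlapped with both other ranges for each gene, though the HOXA9 ranges of THP1 and NOMO1 did not overlap, and neither gene was called. The log2 difference of HOXA9 was 0.24 ± 0.05 (SE) against THP1 and -0.34 ± 0.05 against NOMO1, and that of HOXA10 was 0.02 ± 0.05 and 0.03 ± 0.05.

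HOXA13 reached at most 0.0916 FPKM in MV411, against 14.9, 18.4 and 22.0 FPKM in THP1 and 3.87, 4.65 and 5.34 FPKM in NOMO1. HOXA11 was at 0.534, 0.687 and 0.893 FPKM in MV411, against 13.5, 18.2 and 19.3 in THP1 and 11.6, 12.5 and 13.5 in NOMO1. These are the genes at the 5′ end of the cluster, and both were low in every MV411 library. On the 3′ side, HOXA5, HOXA6 and HOXA7 had medians of at most 0.0849 FPKM in MV411, 0.597 to 1.84 FPKM in THP1 and 6.03 to 8.10 FPKM in NOMO1. Calls for HOXA6 and HOXA7 were lost with a pseudocount of 1, where low levels move the least.

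MEIS1, the cofactor of HOXA9, was at 65.1, 68.7 and 77.6 FPKM in MV411, against at most 0.268 FPKM in THP1 and 24.6, 25.7 and 30.0 FPKM in NOMO1. It was thus high in MV411, intermediate in NOMO1 and near 0 in THP1, with no overlap between any of the lines. The log2 difference was 6.83 ± 0.05 (SE) against THP1 and 1.42 ± 0.05 against NOMO1. Of the 27 tested KMT2A partners and HOX cofactors, LAMP5 was the other called higher, at a median of 178 FPKM in MV411, with 41.2 FPKM in THP1 and 3.90 FPKM in NOMO1.

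The 4 called lower in that list were ZNF521, MLLT3, IGF2BP3 and ARID5B, so that 7.41% were higher and 14.8% lower, beside 3.3% and 4.56% of all genes. ZNF521, a zinc-finger cofactor of haematopoietic progenitors, did not exceed 0.177 FPKM in MV411, against 46.4, 58.0 and 68.0 FPKM in THP1 and 30.3, 34.8 and 38.3 FPKM in NOMO1. MLLT3, the fusion partner of KMT2A in both other lines, was at 0.979, 1.27 and 2.54 FPKM in MV411, against 5.87, 7.53 and 8.08 in THP1 and 3.23, 3.99 and 4.75 in NOMO1. AFF1, the partner in MV411, averaged 31.8 FPKM in MV411, against 31.3 in THP1 and 15.9 in NOMO1, and KMT2A averaged 11.3, 9.60 and 4.84 FPKM in the same order. Reads of a fusion transcript and of the normal gene are not separated in these values.

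The gene block at 9p21 around the cell-cycle inhibitor CDKN2A was transcribed in MV411 and near 0 in THP1 and NOMO1. Of the 9 tested genes of the region, 5 were higher in MV411 (KLHL9, MTAP, CDKN2A, CDKN2B and CDKN2B-AS1), or 55.6% beside 3.3% of all genes. MLLT3 was lower (11.1% beside 4.56%), and these calls held on all 3 scales. CDKN2A was at 64.3, 88.8 and 103 FPKM in MV411, with a highest library of 0.574 FPKM in THP1 and 0.157 FPKM in NOMO1. MTAP, which salvages methionine from methylthioadenosine, was at 41.7, 45.8 and 55.1 FPKM in MV411, with a highest library of 0.749 FPKM in THP1 and 0.342 FPKM in NOMO1. These values separate MV411 from the other lines on every day.

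In the order of the chromosome (hg38, chromosome 9, GENCODE 29), the region gave a boundary that differed between THP1 and NOMO1. FOCAD, at 20658309 to 20995955, averaged 23.9 FPKM in MV411, against 28.7 in THP1 and 0.168 in NOMO1. HACD4, at 20999515 to 21031636, averaged 3.64 FPKM in MV411, against 6.86 in THP1 and 0.122 in NOMO1. Both were thus present in THP1 and at or near 0 in NOMO1 only. From KLHL9, at 21329671 to 21335380, onward the genes were low in both: KLHL9 averaged 11.2 FPKM in MV411, against 0.230 in THP1 and 0.0898 in NOMO1. CDKN2B, at 22002903 to 22009363, averaged 1.21 FPKM in MV411, against 0.00343 in THP1 and 0.000601 in NOMO1. MTAP lies between them at 21802543 to 21937651 and CDKN2A at 21967753 to 21995301. Whether the low genes are deleted or silent in THP1 and NOMO1 cannot be told apart from these levels.

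Of 16 tested genes of the BCL2 family, which governs mitochondrial cell death, 4 were higher in MV411 (BCL2L10, BAX, BBC3 and BMF), or 25.0% beside 3.3% of all genes. Against both lines 0 were lower, a count near the 4.56% of all genes in a list of this size, while 2 were lower than THP1 and 1 lower than NOMO1. Their median log2 difference was -0.06 against THP1 and 0.36 against NOMO1, beside -0.04 and 0.18 over all genes. BAX, a pore-forming protein of the pathway, was at 109, 156 and 229 FPKM in MV411, against 38.6, 47.3 and 59.2 in THP1 and 56.5, 63.1 and 70.1 in NOMO1. BMF, which promotes cell death, was at 11.5, 16.1 and 39.0 FPKM in MV411, against 3.40, 4.37 and 5.90 in THP1 and 3.31, 3.76 and 4.44 in NOMO1. For both, every MV411 library was above the others. The call of BBC3 did not hold on all 3 scales and was lost under 12 of 37 alternatives, 6 of them the loss of a single library. The long noncoding RNA PURPL, among the 3 leading noncoding genes, was at 14.2, 27.0 and 41.7 FPKM in MV411, and at most 0.282 FPKM in THP1 and 0.231 FPKM in NOMO1.

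**Figure D3:**
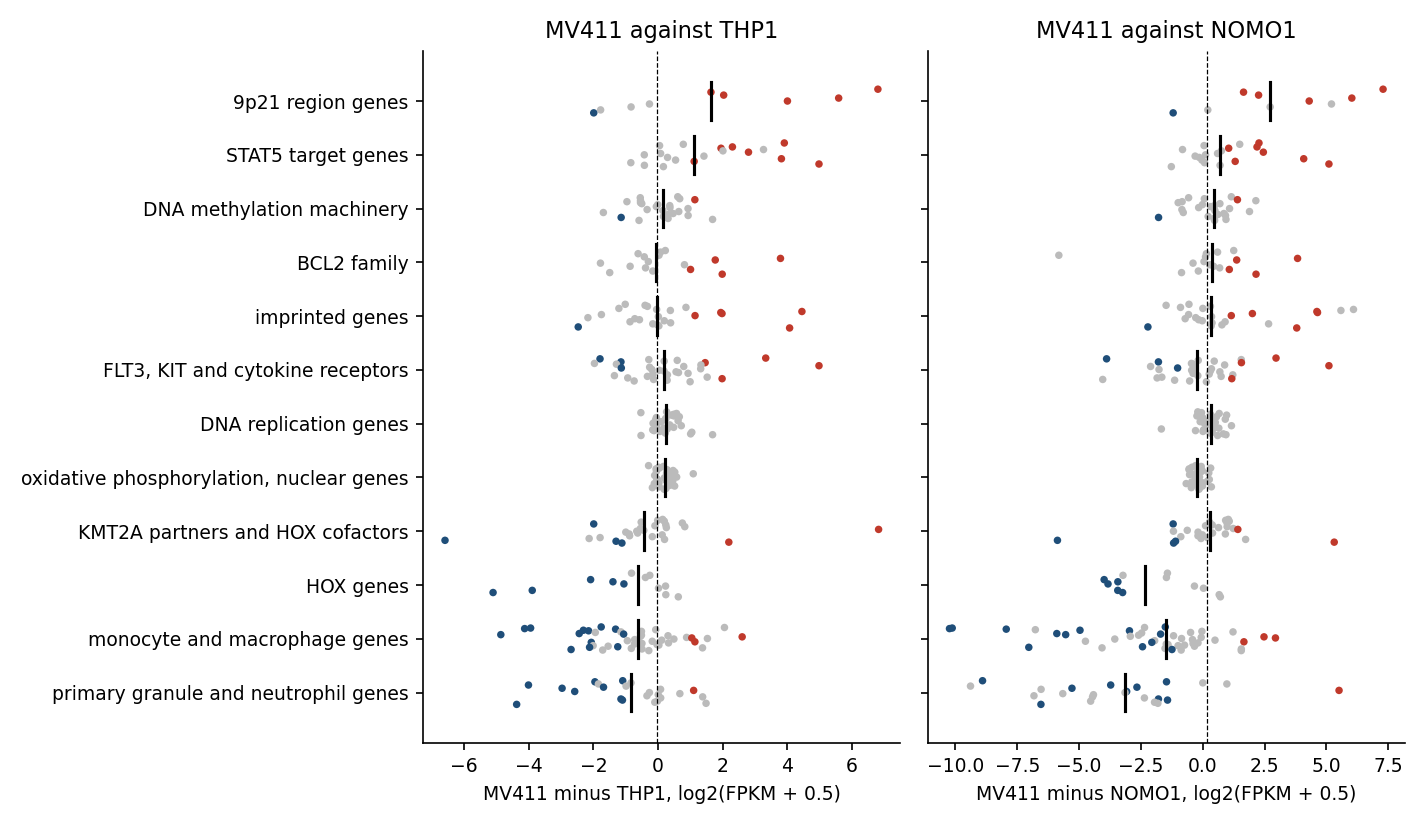
Differences of the tested members of 12 gene lists, MV411 minus THP1 (left) and MV411 minus NOMO1 (right), in log2(FPKM + 0.5), with 1 point a gene and a bar at each list's median. Red points are higher and blue points lower in MV411 than in both lines, grey points are not called, and the dashed line is the median of all 20420 genes (-0.04 and 0.18); the called points of the STAT5 target list and the BCL2 family are all red, and those of the HOX genes all blue.

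Many genes of mature monocytes and of neutrophil granules were lower in MV411. Of 44 tested monocyte and macrophage genes, 13 were lower than in both lines (29.5% beside 4.56% of all genes) and 3 higher. Of 23 tested granule and neutrophil genes, 9 were lower (39.1%) and 1 higher. The higher shares were 6.82% and 4.35%, which in lists of this size is near the 3.3% of all genes. The median log2 difference of the granule list was -0.83 against THP1 and -3.14 against NOMO1, and that of the monocyte list was -0.63 and -1.49. In bulk RNA, fewer cells of a kind and less RNA per cell cannot be told apart.

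S100A9, a calcium-binding protein abundant in monocytes and neutrophils, was at 3.81, 6.24 and 27.2 FPKM in MV411, against 96.6, 124 and 166 in THP1 and 8180, 9010 and 9682 in NOMO1. Its partner S100A8 was at 1.63, 2.74 and 9.85 FPKM in MV411, against 40.9, 52.5 and 66.3 in THP1 and 3514, 3936 and 4220 in NOMO1. For both, the lines were ordered without overlap, MV411 lowest and NOMO1 highest. The highest MV411 value of both came from day 1 replicate 2. Without that library the log2 difference against THP1 was -4.39 for S100A9 and -4.14 for S100A8, beside -4.13 and -3.94 with it.

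CD14, the monocyte receptor for bacterial lipopolysaccharide, averaged 0.280 ± 0.124 FPKM in MV411, against 2.12 ± 0.222 in THP1 and 1.77 ± 0.649 in NOMO1 (SD, n = 8 each). ITGAM, the integrin CD11b, averaged 1.14 ± 0.084 FPKM in MV411, against 8.53 ± 1.88 in THP1 and 99.1 ± 19.8 in NOMO1 (SD, n = 8 each). Both were below the other lines in every MV411 library. MNDA, a nuclear protein of myeloid cells, had a median of 2.62 FPKM in MV411, with 86.2 FPKM in THP1 and 133 FPKM in NOMO1.

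Some monocyte genes went the other way. The inhibitory receptor LILRB1 was at 6.85, 8.12 and 10.1 FPKM in MV411, against 0.420, 0.861 and 1.75 in THP1 and 0.814, 0.967 and 1.36 in NOMO1, with no overlap. LILRB4 and MS4A6A were called higher as well, the LILRB4 call not on all 3 scales. Lysozyme, LYZ, was at 366, 1023 and 1727 FPKM in MV411, against 142, 201 and 299 in THP1 and 3714, 4421 and 5604 in NOMO1, so that MV411 lay between the lines. It was called higher than THP1 (2.06 ± 0.07 on the log2 scale, SE) and lower than NOMO1 (-2.35 ± 0.07).

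The serine proteases of primary granules were transcribed in MV411, CTSG and ELANE at a lower level. Cathepsin G, CTSG, was at 99.6, 167 and 264 FPKM in MV411, against 1620, 2860 and 3886 in THP1 and 1511, 2292 and 2750 in NOMO1. Neutrophil elastase, ELANE, was at 188, 261 and 344 FPKM in MV411, against 786, 1042 and 1166 in THP1 and 579, 654 and 950 in NOMO1. Both ranges lay below those of the other lines. PRTN3, or proteinase 3, was at 461, 880 and 1460 FPKM in MV411, against 1365, 1515 and 1770 in THP1 and 651, 777 and 1172 in NOMO1, and was not called. Myeloperoxidase, MPO, was at 2.45, 3.32 and 6.46 FPKM in MV411, against 4.99, 7.14 and 16.4 in THP1 and 1512, 1924 and 2248 in NOMO1. The MPO ranges of MV411 and THP1 overlapped, and its call against both lines was lost without day 4, without day 6 or without MV411 day 1 replicate 1.

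The 12 protein-coding genes with the largest difference higher in MV411, on all 3 scales and at a mean of at least 5 FPKM, were CDKN2A, PITX1, HORMAD1, MTAP, ZNF185, ENPP2, HMX3, TMEM233, IL2RA, HIST1H1A, HMX2 and NDN. They were ranked by the smaller of their differences from THP1 and NOMO1. All had a limma adjusted p of at most 2.33e-13 and SEs of 0.05 to 0.14. For all 12, the 8 MV411 libraries lay above the other 16, beside 8.05% of all genes tested. The choice by size of difference in these same libraries largely sets this.

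PITX1, a homeodomain factor best known for patterning of the hindlimb and pituitary, was at 204, 270 and 318 FPKM in MV411, against 2.15, 3.26 and 3.75 in THP1 and 0.0955, 0.348 and 1.06 in NOMO1. It lies on chromosome 5 at 135027735 to 135034813 (hg38), and the noncoding gene C5orf66-AS1 at 135038831 to 135040047 beside it was the leading noncoding gene. C5orf66-AS1 was at 27.9, 44.6 and 51.1 FPKM in MV411 and at most 0.132 FPKM in the other lines. The neighbouring homeodomain genes HMX3 and HMX2, on chromosome 10 at 123135962 to 123150672, were also high only in MV411, by the values that follow. HMX3 was at 30.3, 40.9 and 46.3 FPKM in MV411, against 0.248, 0.430 and 1.52 in THP1 and 0, 0.0676 and 0.136 in NOMO1. HMX2 was at 18.6, 25.8 and 29.2 FPKM in MV411, with a highest value of 1.02 FPKM in THP1 and 0.0127 FPKM in NOMO1. In these pairs of neighbours both genes were called.

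HORMAD1, a protein of the meiotic chromosome axis that is normally restricted to germ cells, was at 41.6, 46.8 and 54.6 FPKM in MV411, and at most 0.652 FPKM in THP1 and 0.273 FPKM in NOMO1. ENPP2 encodes autotaxin, which makes lysophosphatidic acid, and had a median of 29.4 FPKM in MV411, with 0.0825 FPKM in THP1 and 0.198 FPKM in NOMO1. NDN is a paternally expressed imprinted gene, with a median of 13.2 FPKM in MV411, with 0.0668 FPKM in THP1 and 0.00296 FPKM in NOMO1. These were near 0 outside MV411. Of the 24 imprinted genes tested, 5 were higher (NDN, MKRN3, PEG3, COPG2 and FAM50B), or 20.8% beside 3.3% of all genes. ZC3H12C was lower, or 4.17% beside 4.56%. The call of COPG2 did not hold on all 3 scales. SNRPN, another imprinted gene of the NDN domain, averaged 94.4 FPKM in MV411, against 96.9 in THP1 and 0.919 in NOMO1, so its low line was NOMO1.

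The 12 leading protein-coding genes lower in MV411, at a mean of at least 5 FPKM in both other lines, were CA2, ADGRL2, RUBCNL, RET, ZNF521, ANPEP, DHRS9, LPL, SERPINB2, MARCKS, PRSS12 and GAPT. All 8 MV411 libraries lay below the other 16 for each, with a limma adjusted p of at most 1.36e-14. Over all genes tested, 7.98% lay below in this way, and the choice by size largely sets it here. CA2, carbonic anhydrase II, averaged 0.834 ± 0.213 FPKM in MV411, against 1181 ± 259 in THP1 and 175 ± 15.4 in NOMO1 (SD, n = 8 each). Its log2 differences, -9.78 ± 0.06 (SE) against THP1 and -7.05 ± 0.06 against NOMO1, came from a gene that was close to 0 in MV411 and among the abundant transcripts of both other lines.

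RET, a receptor tyrosine kinase, was at 0.195, 0.434 and 0.678 FPKM in MV411, against 48.5, 59.1 and 65.3 in THP1 and 50.4, 59.1 and 65.7 in NOMO1. ANPEP, the myeloid surface peptidase CD13, was at 0.236, 0.393 and 1.02 FPKM in MV411, against 61.4, 69.0 and 80.1 in THP1 and 43.3, 58.2 and 64.8 in NOMO1. The levels of RET and ANPEP in THP1 and NOMO1 overlapped, and MV411 stood below both. MARCKS, a membrane substrate of protein kinase C, was at most 0.147 FPKM in MV411, with medians of 21.1 FPKM in THP1 and 27.1 FPKM in NOMO1. SERPINB2, a plasminogen activator inhibitor of monocytes, was at most 0.426 FPKM in MV411, with medians of 36.2 FPKM in THP1 and 73.0 FPKM in NOMO1. Lipoprotein lipase, LPL, did not exceed 0.244 FPKM in MV411, against medians of 25.8 FPKM in THP1 and 38.5 FPKM in NOMO1. MARCKS, SERPINB2 and LPL thus stayed under 1 FPKM in every MV411 library.

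**Figure D4:**
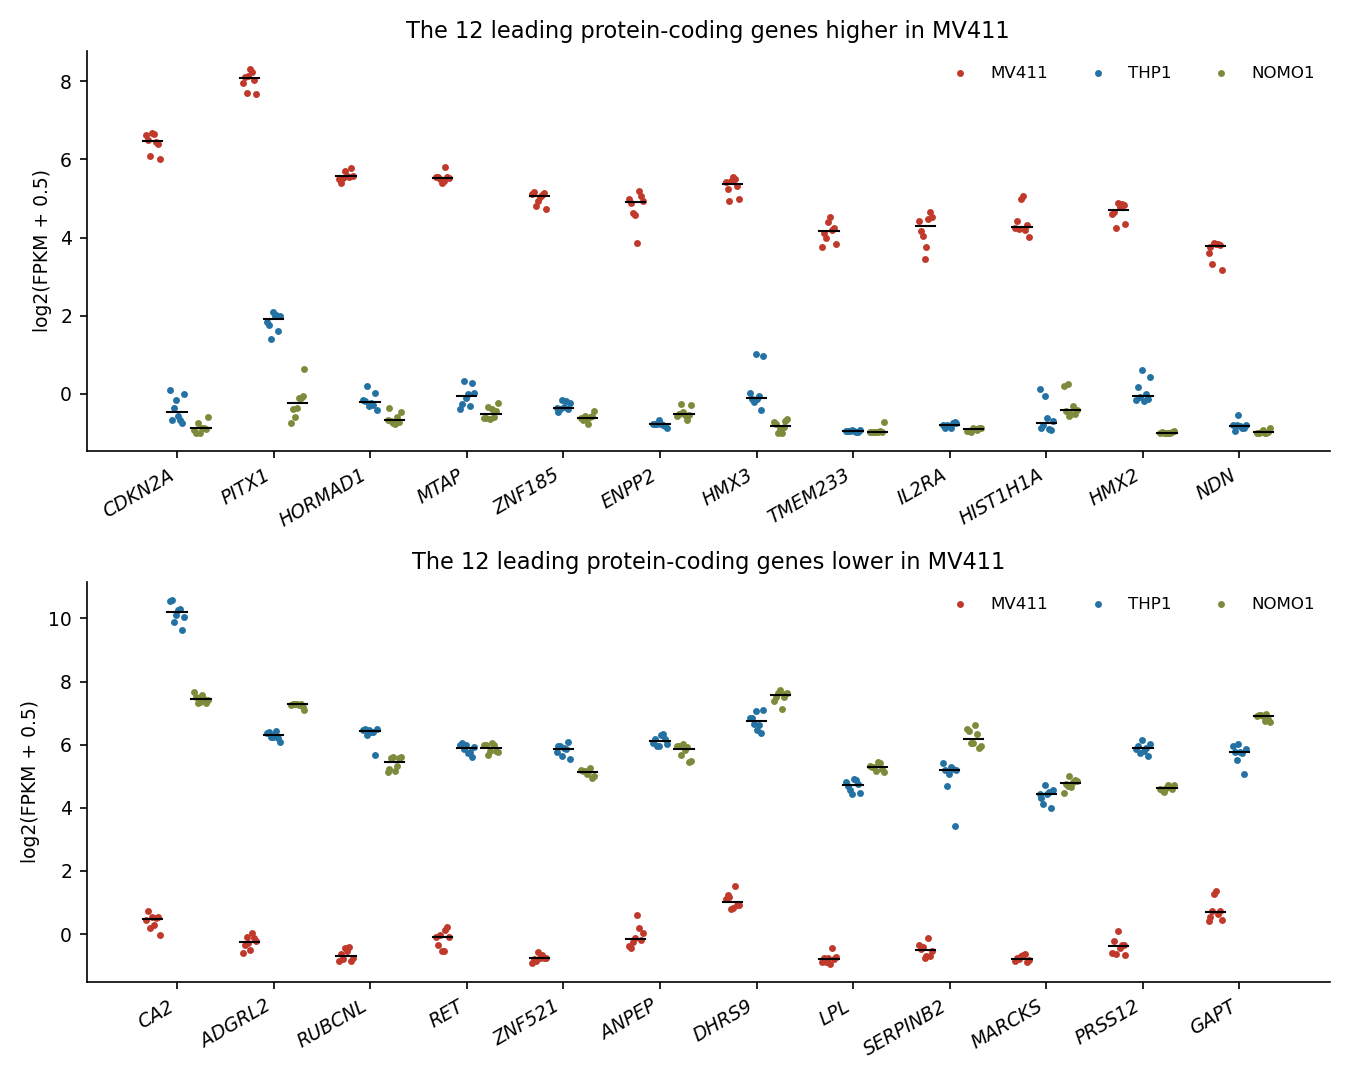
Levels in log2(FPKM + 0.5) of the 12 leading protein-coding genes higher (top) and lower (bottom) in MV411, with 1 point a library (8 per line), bars at the medians, and MV411, THP1 and NOMO1 from left to right. For each gene the 8 MV411 points lie on 1 side of the other 16, as the choice by size of difference in these libraries largely sets.

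DNMT1, the enzyme the study's inhibitors target, was at 116, 132 and 149 FPKM in MV411, against 76.8, 86.6 and 96.2 in THP1 and 53.3, 59.7 and 64.9 in NOMO1. The MV411 range was above both, but the log2 difference from THP1, 0.61 ± 0.06 (SE), was under the size for a call, while that from NOMO1 was past it. UHRF1, which brings DNMT1 to replicated DNA, was higher than in both lines, at 137, 181 and 234 FPKM in MV411, against 65.2, 77.3 and 97.4 in THP1 and 60.5, 65.7 and 71.0 in NOMO1. It was the 1 gene called higher among 25 of the methylation machinery, and GADD45A the 1 called lower, which is 4.0% in each direction beside 3.3% higher and 4.56% lower of all genes. Among 23 genes of decitabine uptake and activation, SLC28A3 and RRM2 were higher (8.70%) and SLC29A2, CDA and AK1 lower (13.0%). CDA, the deaminase that inactivates decitabine, had a median of 0.307 FPKM in MV411, with 2.61 FPKM in THP1 and 12.8 FPKM in NOMO1.

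Of 30 DNA replication genes, 30 nuclear genes of oxidative phosphorylation and 31 genes of fatty acid and cholesterol synthesis, 0 were called against both lines, which in lists of this size is near the all-gene shares of 3.3% and 4.56%. Among 34 ribosomal protein genes only the paralog gene RPL22L1 was called (2.94% higher, beside 3.3% of all genes). It was at a median of 199 FPKM in MV411, with 31.1 FPKM in THP1 and 55.2 FPKM in NOMO1. Of 24 NRF2 target and iron genes, 4 were lower in MV411 (PIR, SLC7A11, ME1 and SLC40A1), or 16.7% beside 4.56% of all genes. Of these 24, 0 were higher, beside 3.3% of all genes. Malic enzyme, ME1, had a median of 0.105 FPKM in MV411, with 11.9 FPKM in THP1 and 11.1 FPKM in NOMO1.

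Genes of chromosome 19 had higher values in MV411 in the median than genes of the other chromosomes, a description with no test. Over 1125 tested genes of that chromosome with a mean of at least 1 FPKM, the median log2 difference was 0.57 against THP1 and 0.72 against NOMO1, beside 0.02 and 0.18 over all 15318 such genes. On the median-ratio scale the values were 0.48 and 0.55, beside -0.06 and 0.01. It was the only chromosome whose median was above 0.25 against both lines on that scale. On chromosome 19, 107 genes (9.51%) were higher in MV411 than in both lines, beside 3.53% of all the genes in this count. Lower than in both lines were 41 (3.64%), beside 5.57% of all the genes in this count. Chromosomes 17 and 22, which are gene-rich too, had medians of 0.19 and -0.04 against THP1 and 0.05 and -0.01 against NOMO1 on the median-ratio scale. The part of gene density in these medians was not tested. Against THP1 alone, chromosome 1 had a median of -0.55, chromosome 6 of -0.46 and chromosome 10 of 0.27. DNA copy number was not analysed here, and gene dosage and regulation cannot be told apart.

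**Figure D5:**
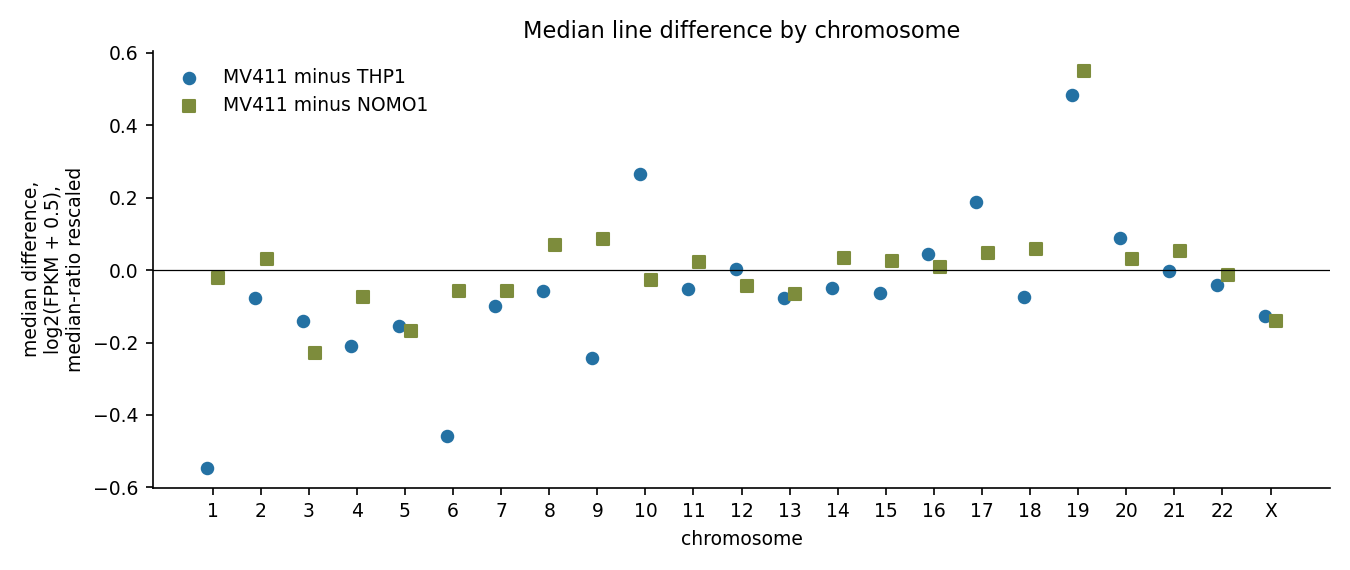
Median log2 difference per chromosome, over tested genes with a mean of at least 1 FPKM, after median-ratio rescaling, for MV411 minus THP1 (blue circles) and MV411 minus NOMO1 (green squares). Chromosome 19 stands at 0.48 and 0.55, while chromosomes 1 and 6 are low only against THP1, at -0.55 and -0.46.

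Most of the differences were present on each day. The line difference of each day was also tested, within the same fit and with the spread shared over all 24 libraries. By this, 354 of the 673 higher genes (52.6%) and 631 of the 932 lower genes (67.7%) were called on all 4 days. The line difference changed from day 1 to day 6 in 371 genes toward higher in MV411 (1.82% of those tested) and in 181 toward lower (0.886%). Among the genes called over all days, 48 of the 673 higher (7.13%) and 70 of the 932 lower (7.51%) showed such a change. Without MV411 day 1 replicate 1, the counts of changing genes were 492 and 309.

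Among the genes whose difference changed with time were LYZ, ORM1, CDKN2B and BCL2L10. LYZ averaged 1523 FPKM on day 1, 1318 on day 2, 743 on day 4 and 387 on day 6 in MV411, and 284, 232, 148 and 193 FPKM on these days in THP1 and 5254, 5079, 3733 and 3908 FPKM in NOMO1. Its line difference fell by 1.48 on the log2 scale from day 1 to day 6 (limma adjusted p = 8.9e-05). ORM1, the acute-phase protein orosomucoid, averaged 0.101, 0.109, 0.721 and 5.71 FPKM on days 1, 2, 4 and 6 in MV411, 12.6, 9.85, 3.72 and 3.12 FPKM in THP1 and 84.9, 71.0, 54.9 and 55.9 FPKM in NOMO1. It was close to absent from MV411 at first and above the THP1 level on day 6. CDKN2B averaged 0.464 FPKM on day 1 and 2.41 FPKM on day 6 in MV411, and no library of the other lines exceeded 0.0149 FPKM. BCL2L10, a member of the BCL2 family, averaged 15.0, 13.6, 7.71 and 1.26 FPKM on days 1, 2, 4 and 6 in MV411, and no other library exceeded 0.0871 FPKM.

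The differences were also followed into treated libraries of the same lines, which the choice of genes had not used. The treatments were GSK032 and DAC at 400 nM on day 4 and GSK477 at 10000 nM on days 2 and 4, DAC being the usual short name of decitabine and the others code names. Within GSK477 libraries, 501 of 661 higher genes (75.8%) and 811 of 930 lower genes (87.2%) were again called against both lines, where 2.95% and 4.33% of all genes were called. Within GSK032 libraries it was 358 (54.2%) and 562 (60.4%), beside 3.89% and 3.73% of all genes. Within DAC libraries it was 337 (51.0%) and 576 (61.9%), beside 3.56% and 5.19%. The groups had 2 libraries each for GSK032 and DAC and 4 for GSK477, so these counts are not matched in precision, and the change between treatments was not tested.

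For the median gene held on all 3 scales, 95.7% of the DMSO difference of higher genes and 99.1% of that of lower genes remained in GSK477 libraries. In GSK032 libraries it was 83.3% and 80.3%, and in DAC libraries 80.2% and 79.2%. These shares set treated libraries of day 4, or of days 2 and 4, against DMSO over all 4 days. Against DMSO libraries of the treated days only, a setting chosen after seeing the data, they were 96.2% and 99.4% for GSK477, 86.9% and 81.6% for GSK032 and 81.2% and 81.3% for DAC. With DMSO over all 4 days and after median ratios, the shares were 88.6% and 101.4% for GSK477. On that scale they were 84.4% and 81.3% for GSK032 and 79.7% and 82.2% for DAC. The GSK477 share of higher genes thus depended on the scale. CA2 averaged 0.896 FPKM in MV411, against 1108 in THP1 and 167 in NOMO1 under GSK032, which left 98.7% of its difference. RET averaged 7.30 FPKM in MV411, against 51.3 in THP1 and 52.9 in NOMO1 under GSK032, which left 45.9% of its difference. HORMAD1 averaged 38.4 FPKM in MV411, against 9.09 in THP1 and 11.5 in NOMO1 under DAC, which left 31.2%. RET was thus above its DMSO level in MV411, and HORMAD1 above its DMSO level in the other lines.

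Of the genes called in DMSO, 50 of 661 higher and 60 of 930 lower had the opposite sign against at least 1 line under GSK032. MPO averaged 94.2 FPKM in MV411, against 4.97 in THP1 and 1644 in NOMO1, so it stood above THP1, against which it had been lower in DMSO. TMEM176B, a membrane protein of myeloid cells, averaged 24.4 FPKM in MV411, against 16.0 in THP1 and 8.44 in NOMO1 under GSK032, and 2.33, 15.4 and 9.82 FPKM in DMSO over all days. PDGFA, a growth factor, averaged 2.87 FPKM in MV411, against 3.23 in THP1 and 6.69 in NOMO1 under GSK032, and 15.9, 3.19 and 5.53 FPKM in DMSO over all days. On day 4 alone, DMSO libraries averaged 1.98, 10.6 and 7.12 FPKM for TMEM176B and 13.0, 4.14 and 6.88 FPKM for PDGFA in the same order of lines. In DMSO the PDGFA values of MV411 ran from 7.81 to 38.2 FPKM and overlapped with NOMO1, and its day 6 libraries were the highest. These 3 were named by the smallest share of the difference left, together with the short or noncoding genes Z83844.1, MIR6775 and MIR606.

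The promoter windows of the called genes were also counted for CG dinucleotides, the sites of DNA methylation. The median number of CG in the 300 bases around the start was 23 for 285 protein-coding genes higher in MV411, 26 for 587 lower genes and 26 for all 10129 tested protein-coding genes with a promoter in the table. The lower quartiles were 10, 11 and 18. These counts describe the reference sequence and say nothing of methylation, which was not measured here.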

How the data were processed

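RNA-seq of 156 libraries was deposited, of which 24 vehicle libraries (8 per line) gave the main comparison. The authors deposited FPKM values per gene in a table per line; Salmon 0.12.0, DESeq2 and the build hg38 are named per the submitters' processing notes, with no roles. The strand setting and whether the lines were normalised together are not given in the sources used here. Fragment counts were not used here, so depth is unknown. Of 59939 gene IDs, 56511 matched the hg38 annotation (GENCODE 29).

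Genes that reached 1 FPKM in 2 or more libraries were fitted with limma 3.58.1 (R 4.3.3, trend) on log2(FPKM + 0.5), with 12 line-by-day groups, 12 residual degrees of freedom and Benjamini-Hochberg adjustment. Differences on this scale understate changes of low genes. The fit was tested on simulated data. Named genes were the 12 largest protein-coding and 3 largest noncoding differences per direction (ranked by the smaller difference), up to 5 called members a list, targeted genes, and those with the smallest share of difference left or the largest change by day; others were named after their values were seen. The members and lists were chosen with earlier results of these data known. Alternatives changed scale, pseudocount, filter, model, threshold, day and library.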

Additional observations from a re-analysis of the deposited data

Results flagged for a closer look

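Of 161 tests for 1 library standing apart within a line, 9 were positive, where chance gives about 1 in 20. In MV411 day 1 replicate 2, MTAP was at 55.14 FPKM, LPL at 0.2441, MPO at 6.463, S100A9 at 27.17 and S100A8 at 9.855, each the highest of the line's 8 libraries and far from the next. LINC00899 stood apart at 0.3423 FPKM in MV411 day 1 replicate 1. ENPP2 at 14.1 FPKM and PPARG at 0.63 FPKM stood apart in MV411 day 6 replicate 2, and CD24 at 0.7261 FPKM in MV411 day 4 replicate 2.

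The line difference (MV411 minus the mean of THP1 and NOMO1) changed most from day 1 to day 6, by limma's test of that change, for 6 genes. On the log2 scale it changed by 5.847 for MIR635, 4.594 for ORM1 and 4.429 for MIR3140, and by -4.177 for GCSHP5, -4.059 for MIR6871 and -4.027 for MIR4470. Apart from ORM1 these are microRNA genes or a pseudogene.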

How the results depend on the processing

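With a log2 difference of at least 2, 155 genes were higher and 344 lower in MV411 than in both lines, 339 and 1057 against THP1, 502 and 928 against NOMO1, 316 and 748 against the mean, and 111 and 20 changed with day. A pseudocount of 0.1 gave 275 genes whose difference changed toward lower with day, against 181. Leaving out 1 library at a time gave 662 to 689 higher and 922 to 943 lower genes, and 345 to 492 and 151 to 309 changing with day, the highest of both without MV411 day 1 replicate 1. Deviations of same-numbered libraries of a day correlated between lines at -0.127 to 0.17, which does not test a replicate series within a line. In THP1 and NOMO1, every replicate 1 library scored positive on the fourth principal component (2.85% of the variance) and every replicate 2 library negative. In MV411 the replicates were mixed on it. With the replicate block, 674 genes were higher and 930 lower. Of 136 named genes with a call, 120 kept it under the 37 alternatives other than the larger threshold and 16 lost it under at least 1; 0 reversed, and the cause was not tested. At a log2 difference of at least 2, 84 of the 136 were called.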

Other observations

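Genes called in the same direction also lay next to each other. Among tested protein-coding genes in chromosome order, 26 runs of at least 3 neighbours were called together, 7 higher and 19 lower in MV411, and no test was made of this number. On chromosome 10, DNAJC1, COMMD3, COMMD3-BMI1, BMI1 and SPAG6 were all lower. On chromosome 11, NLRP6, PGGHG, IFITM2 and IFITM1 were higher, and on chromosome 1, S100A9, S100A12, S100A8 and S100A6 were lower. COMMD3-BMI1 overlaps with its neighbours, so their values are not independent.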
